A study of Mus musculus with 24 samples.

Results

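Triglyceride, the fat stored in adipocytes, is built by acyltransferases of the endoplasmic reticulum and mitochondria, and 8 genes of that route were followed here. They are Gpam, Agpat2, Lpin1, Dgat1, Dgat2, Mogat1, Mogat2 and Bscl2, chosen by symbol from a raw count table of 27179 genes, in which each matched 1 row. All 8 were detected in every library and passed the filter on low counts, together with 17824 genes in all. The table holds 24 libraries of total visceral (perigonadal) adipose tissue from mice aged 27 to 33 weeks, in 6 groups of 4. They are males and females of 3 genotypes, called Tbet knockout (TbetFoxp3cre), Pparg knockout (PpargFoxp3cre) and control (Foxp3cre). All 3 genotypes carry Cre recombinase driven by Foxp3, so the knockouts delete their gene in regulatory T cells, the cells that express Foxp3, and not in adipocytes. Each group has 2 libraries of batch 1 (replicates 1 and 3) and 2 of batch 2 (replicates 2 and 4), as the titles name them. Whether the libraries come from separate animals is not stated, so the p-values speak for the spread among these libraries alone.

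In the glycerol 3-phosphate pathway, fatty acyl groups are added in sequence to a glycerol backbone. GPAM, a mitochondrial acyltransferase, makes lysophosphatidic acid, AGPAT2 makes phosphatidic acid, and lipin 1 (Lpin1) removes the phosphate to give diacylglycerol. DGAT1 and DGAT2, which are unrelated in sequence, add the last acyl group. MOGAT1 and MOGAT2 reach diacylglycerol by another entry, from monoacylglycerol, a route best known in the intestine. Seipin (Bscl2) sits where new lipid droplets leave the endoplasmic reticulum, and in humans loss of AGPAT2 or seipin causes congenital lipodystrophy.

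The libraries held 8345575 to 31022845 counts. All 10 mature adipocyte markers, among them Adipoq and Plin1, were detected in all 24 libraries, and their summed level ranged from 9437 CPM in control female replicate 1 to 59333 CPM in a control male. Epithelial markers were uneven: their sum was 618 CPM in control female replicate 1 and 267 CPM in Tbet knockout male replicate 4, against a median of 5.51 CPM over all libraries. That male library also held epididymis transcripts, at 3928 CPM summed over 4 markers, beside at most 32.7 CPM in any other. Pparg itself, measured over the whole fat, had log2 fold changes over control of 0.03 in Pparg knockout males and 0.13 in Pparg knockout females, with intervals of -0.62 to 0.68 and -0.53 to 0.79. Tbx21, the gene of T-bet, had -1.13 in Tbet knockout males and 0.65 in Tbet knockout females, both short of the threshold. Total fat cannot show a deletion limited to regulatory T cells. In such bulk samples, fewer cells of a type and less RNA per cell cannot be told apart.

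Among the 8 genes, Dgat2 and Mogat1 were higher in males than in females among Tbet knockouts, and no other member passed the test in any of the 11 comparisons. Here and below a gene is called where edgeR's quasi-likelihood test gave an adjusted p under 0.05 over all 17824 genes, and CPM are counts scaled to library size with TMM factors. Between the batches, 7 of the 8 members differed, as did 51.7% of all genes. The libraries of Gpam separated by batch with no overlap, batch 2 above batch 1, as those of 5.44% of genes did.

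Per unit of transcript length, Dgat2 was the most abundant of the 8. Its median over the 24 libraries was 1150 FPKM (fragments scaled to transcript length and library size, from the deposited log2 values), followed by Agpat2 at 389.5 FPKM and Dgat1 at 127 FPKM. Bscl2 had 90.5 FPKM, Lpin1 56.3 FPKM and Gpam 23.2 FPKM. Mogat2 and Mogat1 had medians of 14.6 and 13.6 FPKM, and their ranges over libraries, 1.17 to 56.5 FPKM and 5.45 to 40.3 FPKM, overlapped. The place of Gpam depended on batch, with medians of 44.0 FPKM in batch 2 and 9.18 FPKM in batch 1. In batch 2 it stood above Mogat1 (10.9 FPKM) and Mogat2 (8.47 FPKM), and in batch 1 below both (24.2 and 18.3 FPKM). The range of Dgat2, 523 to 1886 FPKM, lay above that of Dgat1, 61.7 to 234 FPKM. These values were scaled between libraries in a way that is not stated.

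**Figure D1:**
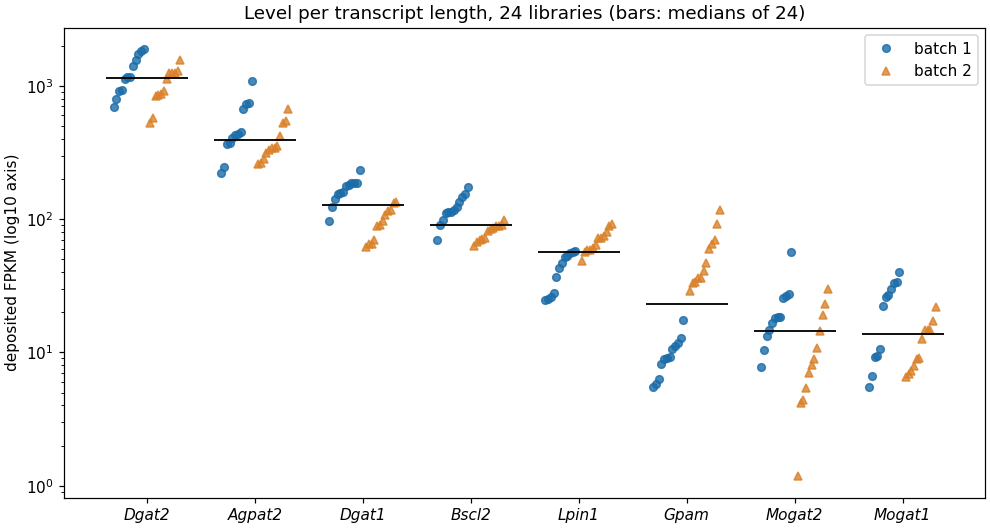
Deposited FPKM of the 8 genes (log10 axis) in 24 libraries, with batch 1 as circles, batch 2 as triangles and bars at the median of 24. Dgat2 stands highest with a median of 1150 FPKM; Gpam separates by batch and lies above Mogat1 and Mogat2 by its median in batch 2 and below both in batch 1.

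Gpam, which encodes the first acyltransferase, lies on chromosome 19 from 55067635 to 55127319 (GRCm38, minus strand). In males it had 20.5 and 44.1 CPM in batch 1 and 135 and 105 CPM in batch 2 in Tbet knockouts. Pparg knockout males had 34.1 and 34.7 CPM in batch 1 and 163 and 120.2 CPM in batch 2, and control males had 40.7 and 51.4 CPM in batch 1 and 128 and 136 CPM in batch 2. Every male library of batch 2 was above every male library of batch 1, whatever the genotype.

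In females, Gpam had 31.1 and 22.1 CPM in batch 1 and 245 and 258 CPM in batch 2 in Tbet knockouts. Pparg knockout females had 35.6 and 65.5 CPM in batch 1 and 173 and 222 CPM in batch 2. Control females had 25.6 and 45.3 CPM in batch 1 and 378 and 467 CPM in batch 2, and their batch 2 libraries were the highest of all 24. Over both sexes, batch 2 libraries spanned 105 to 467 CPM and batch 1 libraries 20.5 to 65.5 CPM, with no overlap. The fitted difference of batch 2 over batch 1 was 5.14-fold (log2 fold change 2.36, SE 0.226, adjusted p = 2.91e-08). Of all tested genes, 26% were called higher and 25.7% lower in batch 2. Groups hold equal numbers of both batches, and batch is a term of the main fit, as 1 shift shared by both sexes.

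Because Gpam was the member that separated the batches, both of its annotated starts are shown, as RefSeq gives them on GRCm38.p6 (250 bases before to 50 after the start, minus strand). The first lies at chr19:55127189-55127488 and the second at chr19:55099428-55099727. Capitals mark matches, on either strand, to 5 motifs that were searched: CCAAT (bound by NF-Y), GGGCGG (Sp1), CACGTG (E-box), AGGTCA (the core motif of nuclear receptors) and TCACNCCAC (a sterol regulatory element). The first start has 1 CCAAT match (reverse strand), and the second has 1 GGGCGG (reverse strand) and 1 AGGTCA.
Gpam, first start: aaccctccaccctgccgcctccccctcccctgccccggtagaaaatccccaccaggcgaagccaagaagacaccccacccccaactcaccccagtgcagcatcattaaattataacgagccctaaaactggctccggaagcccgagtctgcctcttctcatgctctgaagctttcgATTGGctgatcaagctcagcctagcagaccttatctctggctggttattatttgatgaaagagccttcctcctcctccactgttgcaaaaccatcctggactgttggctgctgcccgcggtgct
Gpam, second start: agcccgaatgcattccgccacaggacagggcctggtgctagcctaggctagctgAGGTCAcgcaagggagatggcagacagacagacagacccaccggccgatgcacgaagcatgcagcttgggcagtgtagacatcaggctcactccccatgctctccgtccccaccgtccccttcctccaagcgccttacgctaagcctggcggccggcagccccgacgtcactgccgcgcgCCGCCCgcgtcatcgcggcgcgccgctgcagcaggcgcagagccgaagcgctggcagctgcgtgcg
Of 32851 mouse promoters of this length, 37.4% held CCAAT, 35.7% GGGCGG, 7.15% CACGTG, 16.3% AGGTCA and 1.24% TCACNCCAC. A match is a description of these letters and not a binding site.

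Agpat2, which makes phosphatidic acid, lies on chromosome 2 from 26593057 to 26604417 (minus strand). In males it had 314 and 708 CPM in batch 1 and 255 and 212 CPM in batch 2 in Tbet knockouts. Pparg knockout males had 336 and 322 CPM in batch 1 and 378 and 201 CPM in batch 2, and control males had 407 and 665 CPM in batch 1 and 277 and 460.2 CPM in batch 2. The male groups overlapped throughout.

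Among females, Agpat2 had 197 and 179 CPM in batch 1 and 271 and 213 CPM in batch 2 in Tbet knockouts. Pparg knockout females had 333 and 889 CPM in batch 1 and 289 and 284 CPM in batch 2, and control females had 279 and 519 CPM in batch 1 and 589 and 476 CPM in batch 2. All 4 Tbet knockout females lay below all 4 females of each other genotype, and replicate 3 of the Pparg knockouts stood far above the rest of its group. Agpat2 was the only member without a called batch difference (log2 fold change -0.36, SE 0.223, adjusted p = 0.19). Its locus lies entirely inside the gene model Gm20532 on the other strand, and whether counting used strand is not stated, so reads of the 2 genes may not be separated. Its promoter is shown for this female pattern (chr2:26604368-26604667, minus strand, GRCm38.p6, RefSeq), and its capitals are 3 GGGCGG matches, of which 2 overlap.
Agpat2: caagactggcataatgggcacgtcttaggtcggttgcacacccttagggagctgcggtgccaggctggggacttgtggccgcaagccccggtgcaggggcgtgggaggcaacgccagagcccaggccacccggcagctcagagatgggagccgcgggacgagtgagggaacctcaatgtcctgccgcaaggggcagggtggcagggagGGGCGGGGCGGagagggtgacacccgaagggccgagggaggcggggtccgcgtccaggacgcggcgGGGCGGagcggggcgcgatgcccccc

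Lpin1, the phosphatase step, lies on chromosome 12 from 16535669 to 16653903 (minus strand). Males had 252 to 339 CPM in Tbet knockouts, 267 to 445 CPM in Pparg knockouts and 334 to 528 CPM in controls. Females had 137 to 408 CPM in Tbet knockouts, 149 to 337 CPM in Pparg knockouts and 117 to 535 CPM in controls, so the groups overlapped in both sexes. Like Gpam it was higher in batch 2, by 1.65-fold (log2 fold change 0.73, SE 0.167, adjusted p = 0.00107). Unlike Gpam, it was called in females (1.12, SE 0.204, adjusted p = 0.000161) and not in males (0.34, SE 0.199, adjusted p = 0.168). The promoter at an annotated start of this second gene of the upward pattern is shown (chr12:16610917-16611216, minus strand, GRCm38.p6, RefSeq). That start lies inside the gene, away from its upstream end at 16653903. The capitals are 1 AGGTCA match on the strand shown.
Lpin1: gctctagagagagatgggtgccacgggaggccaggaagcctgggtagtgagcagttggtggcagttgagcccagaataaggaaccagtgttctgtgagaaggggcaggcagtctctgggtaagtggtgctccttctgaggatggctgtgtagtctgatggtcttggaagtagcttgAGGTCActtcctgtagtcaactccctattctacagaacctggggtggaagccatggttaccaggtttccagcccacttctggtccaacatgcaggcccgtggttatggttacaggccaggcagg

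Bscl2, the seipin gene, lies on chromosome 19 from 8837467 to 8848683 (plus strand). Male libraries had 139 to 383 CPM in Tbet knockouts, 144 to 285 CPM in Pparg knockouts and 181 to 366 CPM in controls. Female libraries had 135 to 231 CPM in Tbet knockouts, 156 to 363 CPM in Pparg knockouts and 127 to 232 CPM in controls, so the groups overlapped in both sexes. Bscl2 was lower in batch 2 (log2 fold change -0.59, SE 0.144, adjusted p = 0.00173). It overlaps Gng3 on the opposite strand over 1728 bases, and Gng3 had a median of 1.21 CPM. It also overlaps the protein-coding model AC129217.1 on its own strand over 3671 bases, where counting by strand could not separate reads.

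Dgat1, the broadly expressed enzyme of the final step, lies on chromosome 15 from 76502012 to 76512021 (minus strand). In males it had 318 and 362 CPM in batch 1 and 113 and 107 CPM in batch 2 in Tbet knockouts. Pparg knockout males had 275 and 282 CPM in batch 1 and 165 and 104 CPM in batch 2, and control males had 367 and 470.4 CPM in batch 1 and 121 and 188 CPM in batch 2. In every male genotype both batch 2 libraries were below both batch 1 libraries.

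Dgat1 in females had 290.3 and 265 CPM in batch 1 and 200.3 and 149.9 CPM in batch 2 in Tbet knockouts. Pparg knockout females had 194 and 316 CPM in batch 1 and 195 and 167 CPM in batch 2. Control females had 136 and 233 CPM in batch 1 and 251 and 231 CPM in batch 2, the lowest being replicate 1, the library poorest in adipocyte markers. Dgat1 was lower in batch 2 (log2 fold change -0.82, SE 0.189, adjusted p = 0.00105). The batch difference itself differed between the sexes: it was -1.37 (SE 0.197) in males and -0.26 (SE 0.195) in females, a difference of -1.11 (SE 0.276, adjusted p = 0.0122). Gpam showed the same kind of difference, 1.82 (SE 0.254) in males and 2.93 (SE 0.269) in females, or -1.11 between them (SE 0.354, adjusted p = 0.0361). Of all genes tested, 18.9% had such a difference between the sexes. This test was chosen after the levels had been seen.

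Dgat2, the other enzyme of the final step, lies on chromosome 7 from 99153663 to 99182713 (minus strand). Male libraries had 2431 and 4845 CPM in batch 1 and 2678 and 1671 CPM in batch 2 in Tbet knockouts. Pparg knockout males had 3319 and 4263 CPM in batch 1 and 3556 and 2108 CPM in batch 2, and control males had 3850.0 and 3775 CPM in batch 1 and 2726 and 3022 CPM in batch 2. No male genotype stood apart from the others.

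Among Tbet knockout females, Dgat2 had 1399 and 1892 CPM in batch 1 and 1144 and 1256 CPM in batch 2. Pparg knockout females had 2399.9 and 5137 CPM in batch 1 and 1845 and 2607 CPM in batch 2, and control females had 1131 and 2669 CPM in batch 1 and 2167 and 1961 CPM in batch 2. Apart from replicate 3 of the Tbet knockouts, at 1892 CPM, the Tbet knockout females lay below every Pparg knockout female. Batch 2 was lower than batch 1 (log2 fold change -0.45, SE 0.174, adjusted p = 0.0386).

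Mogat1, on chromosome 1 from 78511060 to 78606964 (plus strand), was low in every group. Males had 35.8 and 49.9 CPM in batch 1 and 15.2 and 17.7 CPM in batch 2 in Tbet knockouts. Pparg knockout males had 32.1 and 40.3 CPM in batch 1 and 16.9 and 12 CPM in batch 2, and control males had 31.1 and 41.8 CPM in batch 1 and 10.1 and 25.1 CPM in batch 2. In each male genotype, batch 1 was above batch 2.

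Females had 11.3 and 6.33 CPM in batch 1 and 10.7 and 8.18 CPM in batch 2 in Tbet knockouts. Pparg knockout females had 11.4 and 27.2 CPM in batch 1 and 8.79 and 7.86 CPM in batch 2, and control females had 10.1 and 13.1 CPM in batch 1 and 20.3 and 16.9 CPM in batch 2. All 4 Tbet knockout females lay below all 4 Tbet knockout males. The Mogat1 promoter is shown because this gene was called between the sexes among Tbet knockouts, though not in the other genotypes (chr1:78510810-78511109, plus strand, GRCm38.p6, RefSeq). Its capitals are 1 CCAAT match on the reverse strand, just after the start.
Mogat1: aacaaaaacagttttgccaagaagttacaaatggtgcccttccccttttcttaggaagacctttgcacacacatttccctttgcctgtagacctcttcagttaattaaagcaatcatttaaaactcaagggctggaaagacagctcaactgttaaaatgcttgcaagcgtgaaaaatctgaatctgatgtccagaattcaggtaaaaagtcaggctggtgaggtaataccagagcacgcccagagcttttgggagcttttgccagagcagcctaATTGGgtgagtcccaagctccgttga

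Mogat2 lies 36370 bases from Dgat2 on chromosome 7, from 99219084 to 99238611 (minus strand), with 0 annotated genes between them. Males had 13.1 and 49.9 CPM in batch 1 and 18.8 and 8.72 CPM in batch 2 in Tbet knockouts. Pparg knockout males had 25.7 and 29.3 CPM in batch 1 and 54.1 and 13.1 CPM in batch 2, and control males had 45.4 and 33.6 CPM in batch 1 and 24.9 and 32.3 CPM in batch 2. The male groups overlapped.

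For Mogat2, females had 23.6 and 31.8 CPM in batch 1 and 2.22 and 7.27 CPM in batch 2 in Tbet knockouts. Pparg knockout females had 46.2 and 96.9 CPM in batch 1 and 14 and 39.3 CPM in batch 2, and control females had 20.5 and 33.3 CPM in batch 1 and 14.9 and 9.22 CPM in batch 2. The highest of all libraries was a Pparg knockout female, and the lowest, at 2.22 CPM, a Tbet knockout female with 19 reads on the gene. Mogat2 was lower in batch 2 (log2 fold change -1.05, SE 0.333, adjusted p = 0.0122), as Mogat1 was (-0.72, SE 0.242, adjusted p = 0.0171). By sex, Mogat2 had -0.45 in males (SE 0.422, adjusted p = 0.4) and -1.65 in females (SE 0.436, adjusted p = 0.00422). Mogat1 had -1.25 in males (SE 0.287, adjusted p = 0.00132) and -0.14 in females (SE 0.298, adjusted p = 0.733). Neither difference between the sexes was called (adjusted p = 0.158 for Mogat2 and 0.0648 for Mogat1).

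Other members too share ground with annotated genes on the opposite strand (GENCODE vM21, GRCm38), where reads may not be separated. These are AC110206.1 for Gpam (18314 bases), 5730419F03Rik and BC035947 for Mogat1 (11934 and 1099 bases), Gm45012 for Mogat2 (7997 bases) and Ntsr2 for Lpin1 (522 bases). Dgat1 and Dgat2 overlap no annotated gene there.

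**Figure D2:**
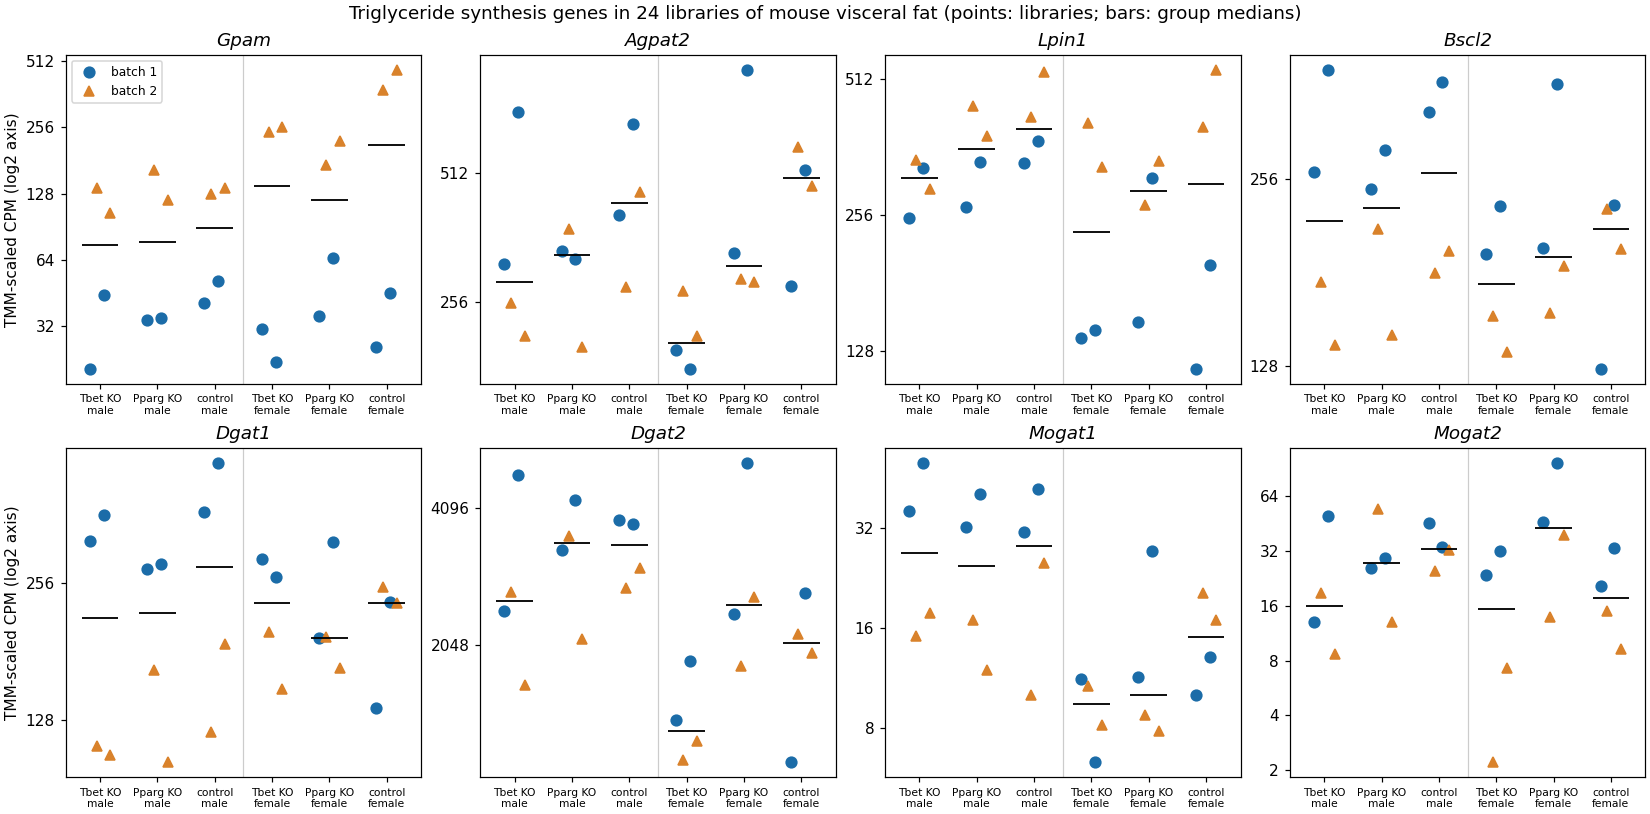
TMM-scaled CPM of each gene (log2 axis) in every library, by group, with batch 1 as circles, batch 2 as triangles and bars at group medians. Gpam separates by batch in all 6 groups, Agpat2 is lowest in Tbet knockout females, and Mogat1 is higher in all 4 Tbet knockout males than in all 4 Tbet knockout females.

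The comparison of each knockout with its control asks whether loss of T-bet or Pparg in regulatory T cells is accompanied by a change of the triglyceride route in whole fat. No member was called in either knockout in either sex. In Tbet knockout females all 8 log2 fold changes were negative, with a median of -0.47, beside -0.04 over all tested genes. The most negative was that of Agpat2, which averaged 215 ± 39.7 CPM in Tbet knockout females and 466 ± 133 CPM in control females (SD, n = 4 each), with no overlap (log2 fold change -1.12, SE 0.382, adjusted p = 0.142, unadjusted p = 0.00842). Here 1.22% of genes were called in either direction, 0.64% lower, and 2.14% had all 4 knockout libraries below all 4 controls. Mogat1 followed (log2 fold change -0.82, SE 0.414, adjusted p = 0.318), then Gpam (log2 fold change -0.64, SE 0.365, adjusted p = 0.378) and Dgat2 (log2 fold change -0.52, SE 0.301, adjusted p = 0.385). DESeq2 called 1 member, Agpat2, at an adjusted p of 0.0393, among 1238 genes (6.95%), and 1 member, again Agpat2, had an unadjusted p under 0.05 in edgeR's test, where 17.3% of genes did.

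Within batches, Agpat2 in Tbet knockout females gave log2 fold changes of -1.08 in batch 1 and -1.14 in batch 2. Every member was negative in batch 2 alone. In batch 1 alone Dgat1 (0.60), Bscl2 (0.25) and Mogat2 (0.04) were positive, so the shared direction did not hold in both batches. The summed adipocyte markers were 32658 to 36202 CPM in Tbet knockout females and 9437 to 43245 CPM in control females, with 0 of 10 called. With the mean of those markers as a covariate, 4 members and 614 genes (3.44%) were called, the 4 members all lower: Agpat2 (-1.44, adjusted p = 0.0159), Mogat1 (-1.18, adjusted p = 0.0226), Gpam (-0.97, adjusted p = 0.0362) and Dgat1 (-0.38, adjusted p = 0.0472). Without the 9 libraries with epithelial transcripts over 5 times the median, Agpat2 was called (-1.27, adjusted p = 0.0461), with 0.948% of genes. Of these 9, only control female replicate 1 belongs to the groups compared here, and the rest enter through the shared fit. With that library alone left out, 0 members were called. Epithelial markers summed to 2.02 to 17.3 CPM in Tbet knockout females and 1.39 to 618 CPM in control females. Macrophage markers summed to 1090.0 to 1460.2 CPM in Tbet knockout females and 334 to 906 CPM in control females, with no overlap; their median log2 fold change was 0.95 and 0 of 7 were called. The part of either set in the main values was not tested beyond this. For scale, Fasn and Acly, which make the fatty acids that these enzymes esterify and were named after their values were seen, were called lower in Tbet knockout females (log2 fold changes -3.20 and -3.28, adjusted p = 0.0146 and 0.0039).

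In Tbet knockout males 7 of the 8 log2 fold changes were negative, with a median of -0.34, and none was called. They ranged from -0.71 for Mogat2 (interval -1.87 to 0.45) to 0.10 for Mogat1 (interval -0.74 to 0.93). Only 0.00561% of all genes, 1 gene, were called by edgeR in this comparison, 4.38% had an unadjusted p under 0.05, and DESeq2 called 20 genes and 0 members. The Tbet knockout effect in males minus that in females was not called for any member. It was 0.91 for Mogat1 (SE 0.575, adjusted p = 0.55), 0.80 for Agpat2 (SE 0.535, adjusted p = 0.579) and 0.29 for Dgat2 (SE 0.425, adjusted p = 0.833). For this difference 0.00561% of genes were called, 11.5% had an unadjusted p under 0.05, and DESeq2 called 231 genes and 0 members.

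In Pparg knockout females 5 members were below and 3 above control, with a median of -0.09. Mogat2 gave the largest of the 8 values, at a mean of 49.1 ± 34.8 CPM in the knockouts against 19.5 ± 10.3 CPM in control females (SD, n = 4 each), groups that overlapped (log2 fold change 1.29, SE 0.557, adjusted p = 0.38, unadjusted p = 0.0318). The 4 values of Dgat2 in Pparg knockout females also overlapped those of controls (log2 fold change 0.53, SE 0.302, adjusted p = 0.507). The batches differed in sign. In batch 1 alone every member was above control, and in batch 2 alone every member but Dgat2 and Mogat2 was below it. Gpam had 0.51 in batch 1 and -1.09 in batch 2, Agpat2 0.62 and -0.89, and Mogat1 0.74 and -1.16. By edgeR 0.0168% of genes were called in this comparison, 11.9% had an unadjusted p under 0.05, and DESeq2 called 368 genes and 0 members.

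In Pparg knockout males all 8 values were negative, with a median of -0.21. The most negative was that of Agpat2 (-0.53, interval -1.32 to 0.26) and the nearest to 0 that of Dgat2 (-0.01, interval -0.64 to 0.61). The edgeR test called 0% of genes in this comparison, 454 of 17824 (2.55%) had an unadjusted p under 0.05, and none of these was a member. DESeq2 called 1 gene and 0 members. The Pparg knockout effect in males minus that in females was called for 0 members and 0% of genes by edgeR, with 6.14% of genes and 0 members below the unadjusted threshold and 62 genes called by DESeq2. Mogat2 had the largest such value (-1.31, SE 0.781, adjusted p = 0.811). Both knockouts share their control libraries, so their values are not independent of each other.

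**Figure D3:**
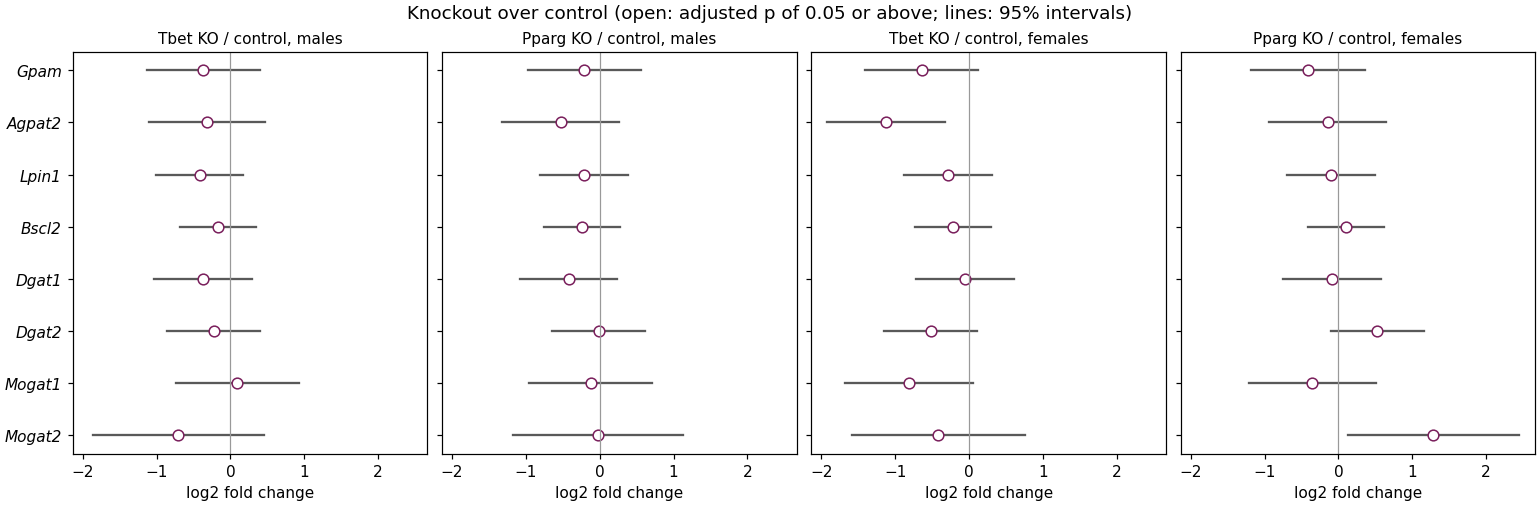
Log2 fold changes of knockout over control (x axis) with 95% intervals for the 8 genes, in males and females. All points are open because no adjusted p was under 0.05; the interval of Agpat2 in Tbet knockout females and that of Mogat2 in Pparg knockout females lie apart from 0.

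Set directly against each other in females, Tbet knockouts had lower values than Pparg knockouts for 7 of the 8 members, again with none called. Dgat2 averaged 1423 ± 329.5 CPM in Tbet knockout females and 2997 ± 1462 CPM in Pparg knockout females (SD, n = 4 each; log2 fold change -1.05, SE 0.304, adjusted p = 0.5, unadjusted p = 0.00249). Mogat2 averaged 16.2 ± 13.8 CPM in Tbet knockout females and 49.1 ± 34.8 CPM in Pparg knockout females (log2 fold change -1.70, SE 0.569, adjusted p = 0.728). Agpat2, which did not overlap between these groups, had a log2 fold change of -0.97 (interval -1.78 to -0.17, adjusted p = 0.933), where 1.05% of genes had no overlap in this direction. By edgeR 0% of genes were called, 4.8% had an unadjusted p under 0.05, as 3 members did, and DESeq2 called 104 genes (0.583%), among them Dgat2 (adjusted p = 0.0387). In males, the values of Tbet knockouts over Pparg knockouts ran from -0.68 for Mogat2 to 0.22 for Mogat1, with 0 members and 0% of genes called, 4.24% of genes and 0 members below the unadjusted threshold, and 6 genes and 0 members called by DESeq2.

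Males and females were compared within each genotype. Among Tbet knockouts, Dgat2 was 2.01-fold higher in males (95% interval 1.3 to 3.12), at 2906 ± 1362 CPM in males and 1423 ± 329.5 CPM in females (SD, n = 4 each; log2 fold change 1.01, SE 0.303, adjusted p = 0.0419). Only replicate 3 of the females, at 1892 CPM, reached above the lowest male, at 1671 CPM. Mogat1 was 2.93-fold higher in males (1.59 to 5.39), at 29.7 ± 16.3 CPM in males and 9.13 ± 2.3 CPM in females, with no overlap (log2 fold change 1.55, SE 0.421, adjusted p = 0.0255). In this comparison 3.93% of genes were called higher in males and 9.31% in either direction, and 5.66% had no overlap in this direction. The 6 other members were not called; Agpat2 had 0.70 (adjusted p = 0.253) and Gpam -0.45 (adjusted p = 0.468).

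Single libraries decided both calls. Dgat2 was lost without any of the 4 Tbet knockout females or without replicate 2 or 3 of the Tbet knockout males, with log2 fold changes of 0.75 to 1.09 and adjusted p from 0.0584 to 0.165. Mogat1 was lost without female replicate 1, 3 or 4 or male replicate 3, with 1.29 to 1.61 and adjusted p from 0.0552 to 0.0859. Within batch 1 Mogat1 was called (2.25, adjusted p = 0.037) and Dgat2 was not (1.11, adjusted p = 0.276), and within batch 2 neither was (0.81 and 0.87, adjusted p = 0.22 and 0.125). Adipocyte markers summed to 26540 to 47847 CPM in Tbet knockout males and 32658 to 36202 CPM in Tbet knockout females, with 0 of 10 called, and with their mean as a covariate Dgat2 gave 0.99 (adjusted p = 0.00955) and Mogat1 1.53 (adjusted p = 0.00075), where 18.6% of genes were called. Mesothelial markers were lower in males for 2 of 4 and stromal markers for 2 of 5, and their part was not tested. Epithelial markers summed to 1.51 to 267 CPM in males and 2.02 to 17.3 CPM in females, and epididymis markers to 0 to 3928 CPM in males and 0 to 0.202 CPM in females. Without the richest male library and control female replicate 1, Dgat2 gave 1.14 (adjusted p = 0.00961) and Mogat1 1.60 (adjusted p = 0.0225).

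Among controls, all 4 males lay above all 4 females for Dgat2, at 3343 ± 556 CPM in males and 1982 ± 641 CPM in females, and it missed the threshold (log2 fold change 0.71, SE 0.302, adjusted p = 0.0843). In this comparison 27.2% of genes were called, 13.6% higher, and 7.84% had all 4 males above all 4 females. Gpam ran the other way (log2 fold change -0.73, SE 0.373, adjusted p = 0.155), and Lpin1 and Mogat2 were positive (0.54 and 0.92) and not called. By edgeR 0 members were called and 1, Dgat2, had an unadjusted p under 0.05, as did 39.5% of genes, while DESeq2 called Dgat2 (adjusted p = 0.0401) among 5936 genes (33.3%), a larger share than that of the members.

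Within batches, the sex values of controls differed in size and for some genes in sign. Gpam had a log2 fold change of 0.33 within batch 1 and -1.68 within batch 2, and it was called in batch 2 alone (adjusted p = 0.00469). Dgat1 had 1.14 within batch 1 (adjusted p = 0.0177) and -0.64 within batch 2, Mogat1 had 1.61 (adjusted p = 0.0197) and -0.08, and Lpin1 had 1.12 (adjusted p = 0.0364) and 0.02. For Dgat2 both were positive, 0.97 and 0.48. The batch-by-sex difference over all genotypes, given above, passed the test for Gpam and Dgat1 and missed it for Lpin1 (adjusted p = 0.0579) and Mogat1 (adjusted p = 0.0648). Batch 1 includes control female replicate 1, the library low in adipocyte markers and high in epithelial markers, whose source name gives batch 2 although its title gives batch 1. Without that library Gpam was called lower in males (-1.01, adjusted p = 0.042). Macrophage markers were higher in control males for 7 of 7 and adipocyte markers for 2 of 10, and stromal markers were lower for 3 of 5; their part in these values was not tested.

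Among Pparg knockouts no member was called between the sexes, where 8.77% of genes were. Mogat1 averaged 25.3 ± 13.2 CPM in males and 13.8 ± 9.03 CPM in females (log2 fold change 0.86, SE 0.404, adjusted p = 0.179), and its within-batch values were 0.88 in batch 1 and 0.80 in batch 2. Mogat1 was the 1 member with an unadjusted p under 0.05, beside 26.5% of genes, and DESeq2 called 0 members. Dgat2, whose value was positive in the other genotypes too, had 0.17 here (interval -0.46 to 0.80).

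**Figure D4:**
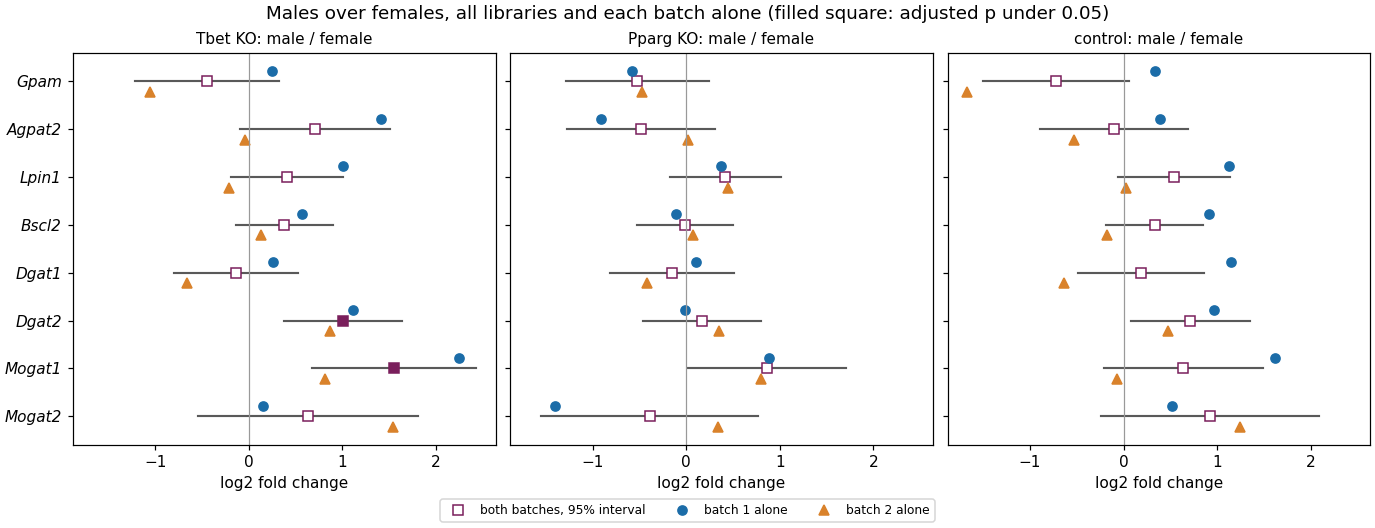
Log2 fold changes of males over females (x axis) for the 8 genes in each genotype, from all libraries with 95% intervals (squares) and from batch 1 (circles) or batch 2 (triangles) alone. Filled squares mark Dgat2 and Mogat1 in Tbet knockouts; in controls Gpam, Dgat1, Agpat2, Bscl2 and Mogat1 have opposite signs in the batches.

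Genes around the route were taken from 4 lists. The isoenzymes of the same steps were 12 genes, of which Awat1 and Dgat2l6 were too low to be tested. In control males 3 of the 10 tested were higher than in control females and 0 lower, beside 13.6% of all genes in each direction. They were Gpat4, an acyltransferase of the endoplasmic reticulum for the first step (log2 fold change 0.81, adjusted p = 0.0193), and the lipins Lpin2 (log2 fold change 0.46, adjusted p = 0.0418) and Lpin3 (log2 fold change 0.47, adjusted p = 0.0442). Gpat4 averaged 191 ± 41.7 CPM in control males and 108 ± 38.8 CPM in control females (SD, n = 4 each). No isoenzyme was called between knockout and control. Per length, Gpat3 and Gpat4 had medians of 37.4 and 34.6 FPKM beside 23.2 FPKM for Gpam, which stood above both in batch 2 (44.0 FPKM) and below both in batch 1 (9.18 FPKM). Agpat3, at 57 FPKM, and Agpat1, at 42.8 FPKM, stood below Agpat2 at 389.5 FPKM.

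Supply of glycerol 3-phosphate and acyl-CoA was followed in 10 genes. In control males 3 of 10 were higher and 0 lower, beside 13.6% of all genes each way: Aqp7, the adipocyte glycerol channel (log2 fold change 1.82, adjusted p = 0.00666), Acsl5, an acyl-CoA synthetase (log2 fold change 0.57, adjusted p = 0.00692), and Gk, glycerol kinase (log2 fold change 1.54, adjusted p = 0.0175). Gk was also higher in males among Tbet knockouts, at 57.8 ± 46 CPM in males and 11.3 ± 2.25 CPM in females (log2 fold change 1.95, adjusted p = 0.0129), and among Pparg knockouts (log2 fold change 1.49, adjusted p = 0.0441). None of the 10 was called in a knockout against control.

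Lipid droplet assembly and coat genes numbered 11, with Ldaf1 listed under its older symbol Tmem159. In control males 4 of 11 were higher and 0 lower, again beside 13.6% of all genes each way: Plin4, a droplet coat protein (log2 fold change 1.86, adjusted p = 0.00926), Cidec, which promotes droplet fusion (log2 fold change 1.44, adjusted p = 0.0252), and Fitm1 and Fitm2, which help bud droplets from the endoplasmic reticulum (log2 fold change 4.10, adjusted p = 0.00151, and log2 fold change 1.08, adjusted p = 0.0271). Fitm1 was very low, at 1.18 ± 0.24 CPM in control males and 0.0681 ± 0.059 CPM in control females, so that its fold change depends on the prior count. It was also called in Pparg knockout males over females (log2 fold change 2.60, adjusted p = 0.0418). Cidec is among the adipocyte markers used above.

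In the phospholipid branch, which draws on the same intermediates, 1 of 7 genes was lower in Tbet knockout females than in controls, beside 0.64% of all genes. This was Pcyt2, the enzyme that sets the pace of phosphatidylethanolamine synthesis, at 58.1 ± 8.27 CPM in Tbet knockout females and 101 ± 16.6 CPM in control females (SD, n = 4 each; log2 fold change -0.80, adjusted p = 0.0169). Between control males and females, Pcyt1a, its counterpart for phosphatidylcholine, was higher in males (log2 fold change 0.48, adjusted p = 0.00114) and Pcyt2 lower (log2 fold change -0.51, adjusted p = 0.0173). No other gene of the 4 lists was called in any comparison.

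The members also varied together across libraries. After the means of each batch in each sex were removed, the 28 pairs of members had a median Pearson r of 0.74 over 12 male libraries and 0.66 over 12 female libraries. In males the highest were Dgat2 with its chromosomal neighbour Mogat2 (0.95) and Agpat2 with Bscl2 (0.91), and in females Agpat2 with Mogat1 (0.91), Gpam with Mogat1 (0.90) and Gpam with Lpin1 (0.90). Mogat2 with Dgat2 gave 0.82 in females, and Mogat2 with Mogat1 was low in both sexes (0.25 in males, 0.23 in females). This centring was chosen after seeing the data, because removing the batch means over both sexes together leaves in the batch differences that the sexes do not share. Centring them together gave medians of 0.70 in males and 0.71 in females, and moved some pairs far: Gpam with Mogat2 in males was 0.79 with the sexes centred apart and 0.29 with them centred together. These libraries share differences in cell makeup and depth, so the values are given as a description. The median over pairs of other genes was not computed, so these values do not set the members apart. Against the mean of the adipocyte markers, r over 24 libraries, centred by batch alone, was 0.86 for Dgat1, 0.77 for Bscl2, 0.67 for Lpin1 and 0.59 for Mogat1. It was 0.45 for Dgat2, 0.38 for Gpam, 0.35 for Agpat2 and -0.03 for Mogat2. By sex, Gpam had 0.51 over 12 female and 0.74 over 12 male libraries.

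**Figure D5:**
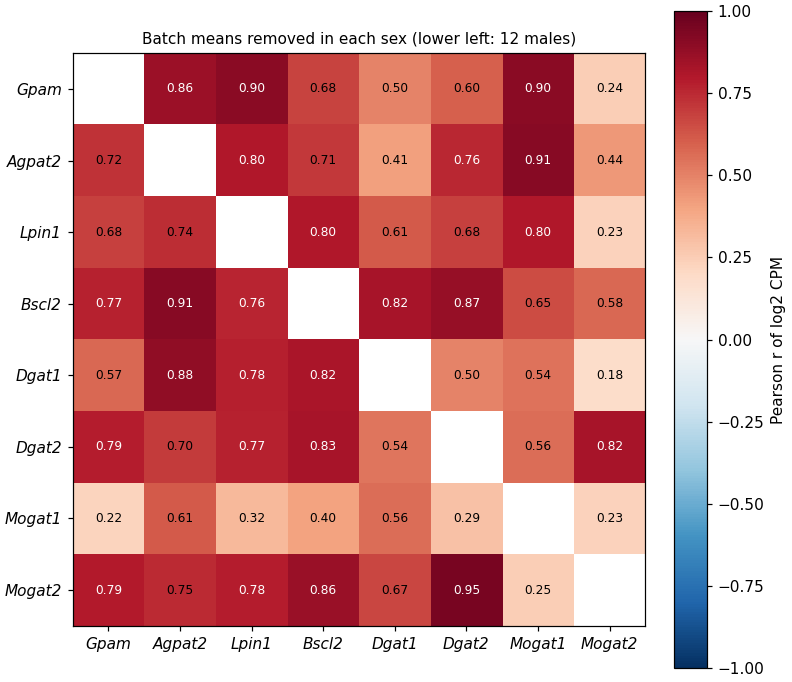
Pearson r between the 8 genes in log2 CPM with the batch means removed in each sex, with 12 male libraries in the lower left and 12 female libraries in the upper right. All values are positive; Dgat2 with Mogat2 is among the darkest (0.95 in males, 0.82 in females), and Mogat1 with Mogat2 is pale in both (0.25 and 0.23).

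Over the whole table, the genes whose batch-centred levels were most like each member's across 24 libraries were as follows, by Pearson r. Dgat1 was closest to Cpt2 (0.94), which imports fatty acids into mitochondria, then Miga2 (0.94) and Scp2 (0.93), and Bscl2 to Kpna6 (0.94), Ywhag (0.93) and Prelid3b (0.93). Lpin1 was closest to Slc26a2 (0.93), Tomm70a (0.90) and Trf (0.90), and Agpat2 to Pdhx (0.91), Mpc2 (0.90), a subunit of the mitochondrial pyruvate carrier, and Sh2b2 (0.90). Dgat2 was closest to Sardh (0.91), Lamtor1 (0.90) and Ppp2ca (0.89). Mogat1 was closest to Enpp2 (0.91), which encodes autotaxin, Rab5a (0.89) and Lsm12 (0.89). Gpam was closest to Mrps2 (0.89), Aifm1 (0.87) and Orc3 (0.85). Mogat2 had the least close matches, Marc1 (0.86), Ap3d1 (0.80) and Eef1akmt1 (0.80). These levels were centred by batch over both sexes together. Differences between the sexes, and batch differences that the sexes do not share, therefore remain in these values. The genes were picked as the highest of many, so the values are a description.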

How the data were processed

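RNA was extracted from total visceral fat with a lipid tissue kit and sequenced from TruSeq libraries, per the labels' protocols. The authors deposited 1 table of raw counts per gene, and featureCounts, limma and the builds GRCm38 and mm10 are named in the submitters' processing notes; their versions, the aligner and the strandedness are not stated there. They also deposited log2 FPKM values for 15764 genes per library; 21 of 24 libraries share their largest value exactly with another, so these values were scaled between libraries in a way not stated, and they serve only for levels per length and 1 alternative test.

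The counts went into edgeR 4.0.16 (R 4.3.3). Its filterByExpr, by group, kept 17824 of 27179 genes, and after TMM scaling 1 robust quasi-likelihood model held all 24 libraries, with the 6 groups and batch as terms and 17 residual degrees of freedom. Genes with no symbol held 0.433% of counts. There were 11 comparisons, each adjusted by Benjamini-Hochberg over all genes tested, and the common biological coefficient of variation was 0.404. Reads are not independent molecules. Log2 CPM for correlations used a prior count of 2. Tried as alternatives were DESeq2 1.42.0, limma 3.58.1, other scaling and filters, other batch terms, each batch alone, a replicate block, libraries left out and an adipocyte covariate. The fit was tested on counts simulated for Tbet knockout against control females, with the changed genes drawn from those with higher counts. It recovered 48% of 100 2-fold changes and 86% of 100 4-fold changes, and 6.29% of the genes called had not been changed. The counts were drawn from the fitted model itself, with 1 batch shift shared by both sexes. Recovery in the real libraries, where batch differences vary by sex, may differ.

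The members, lists and markers were chosen with earlier results of these data known. The text names all members, up to 4 called genes of each list per comparison, and the 3 genes most like each member; Fasn and Acly were added after their values were seen. Promoters came from a RefSeq table (GRCm38.p6) that matched 5 of the 8 members, and gene positions from a RefSeq gene table of GRCm38.

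No 2 libraries of the same group were copies of each other. The mean chi-square per gene between their counts was 18.8 to 348, given as a description with no p-value. Other pairs were not compared.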

Additional observations from a re-analysis of the deposited data

Results flagged for a closer look

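Agpat2 was 889 CPM in Pparg knockout female replicate 3, and 284 to 333 CPM in the other 3 Pparg knockout females. The gap was 0.92 of the range of that group, above Dixon's critical value for 4 samples. Dgat1 was 136 CPM in control female replicate 1, and 231 to 251 CPM in the other 3 control females, a gap of 0.83 of the range. The first of these libraries held 76 CPM of epithelial markers, and the second held 618 CPM and the lowest adipocyte marker sum of all, 9437 CPM; the part of these in the values was not tested. Of 48 sets of 4 libraries (8 genes in 6 groups) these 2 passed, and chance gives about 1 in 20.

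The difference between the batches itself differed between males and females for Gpam and Dgat1. For Gpam, batch 2 minus batch 1 on the log2 scale in males minus that in females was -1.11 (SE 0.354, adjusted p = 0.0361). For Dgat1 it was -1.11 as well (SE 0.276, adjusted p = 0.0122). With edgeR's test 18.9% of all genes had such a difference.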

How the results depend on the processing

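No value changed from called in one direction to called in the other under any alternative. Of 2240 recomputed log2 fold changes, 170 had another sign than the main value, touching 51 of 88 results, and in none of these was either value called. The number of members called was 0 in the main analysis of Tbet knockout against control females; it was 1 with DESeq2, 1 without the 9 libraries with epithelial transcripts and 4 with the adipocyte covariate. Tbet against Pparg knockout females went to 1 with DESeq2. Males against females among controls gave 0, but 1 with DESeq2, 1 with voom quality weights, 1 with the replicate block, 1 in batch 2 alone, 1 without the epithelial libraries, 1 with the adipocyte covariate, and 1 without the female control and male Tbet knockout library richest in epithelium (chosen after seeing the data). It gave 3 with a batch term in each sex (Lpin1, Dgat1 and Mogat1), 3 in batch 1 alone and 3 with same-numbered libraries correlated in voom. With 1 library left out it gave 0 to 1 (1 without control female replicate 1). Among Pparg knockouts the 0 members became 2 with a batch term in each sex (Lpin1 and Mogat1) and 1 with the adipocyte covariate (Dgat1). Among Tbet knockouts the 2 members became 0 without a batch term, 1 without the filter, 1 in batch 1 alone, 1 in batch 2 alone (Gpam), 5 without the epithelial libraries and 0 to 2 with 1 library left out. The 9 epithelial libraries include both batch 2 libraries of Tbet knockout males and both of control males. Without them these male groups hold batch 1 alone, while the females they are compared with hold both batches. Mogat1 among Tbet knockouts then gave 2.14, beside 2.25 in batch 1 alone. Leaving out epithelium and leaving out batch 2 males cannot be told apart there, and the cause of these changes was not tested. In the other 6 comparisons the count was 0 in every alternative. Of the 2240 values, 31 passed the threshold where the main value did not, 16 lost it, and 134 uncalled values moved by over 1 SE. Whole-table counts moved more: Tbet knockout females against controls had 218 genes called, and 1238 with DESeq2.

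With the replicate number as a block, Dgat2 among controls was called between the sexes (0.78, adjusted p = 0.0296), and both calls among Tbet knockouts held (adjusted p = 0.0252 for Dgat2 and 0.037 for Mogat1); no other member's call changed. Deviations of same-numbered libraries from their group means correlated at -0.18 to 0.70, and within batch at -0.28 to 0.44, above 0.1 in 12 of 36 pairs. In 15 of 36 cases a library correlated best with its own number, and in no comparison did all 4. Within batch all 4 pairs were above 0.1 among males in Tbet against Pparg knockouts (0.15 to 0.44) and in Tbet knockouts against controls (0.10 to 0.13); the block gave 0 members called in both, as did the fit without it. The 2 pairs of a batch have equal values by construction. With 4 libraries a group and a coefficient of variation of 0.404, differences of the members, also of 2-fold, may not be detectable. In the simulated counts, which follow the fitted model, 48% of 2-fold changes were recovered.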
